A study of Mus musculus with 2 samples.

Results

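The genes described here encode the heat shock proteins, their DnaJ co-chaperones, the BAG nucleotide exchange factors and the heat shock transcription factors. They were taken as every protein-coding gene whose GENCODE mouse symbol begins with Hspa, Hspb, Hsp90, Dnaja, Dnajb or Dnajc and a number, or is Hspd1, Hspe1, Hsph1, a numbered Bag gene or a numbered Hsf gene. The rule found 82 genes among 43346 genes, of which 21474 were protein-coding, and it used no measured value. Whole lung was taken from 1 female adult of the mouse strain C57BL/6J at 10 weeks, with no treatment named in the labels, and its polyadenylated RNA was sequenced in 2 libraries. Both are technical replicates of biological replicate 1, and per the labels the second was made later than the first. The deposited tables held 17110871 counts in replicate 2 and 16104423 counts in replicate 1, in rounded estimated reads per gene.

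Hsp70 proteins bind exposed hydrophobic stretches of client proteins and release them through cycles of ATP hydrolysis. J proteins, which carry the J domain first described in bacterial DnaJ, bring clients to Hsp70 and start hydrolysis, and Hsp110 and BAG proteins exchange the nucleotide so that the client is released. Hsp90 acts later on kinases and receptors, Hsp60 and Hsp10 form the folding chamber of mitochondria, small heat shock proteins hold unfolded clients, and Hsf1 switches on many of these genes in stress.

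No condition was compared in this series. The design allows the question of how strongly each chaperone gene was expressed here, and by how much the later library differed from the earlier one. With 1 library on a side no gene has a p-value, every SD is over n = 2 libraries and measures technical spread, and intervals of ratios are exact Clopper-Pearson intervals at 95% that cover counting error only. In tissue of many cell types, fewer cells of a type and less RNA per cell cannot be told apart.

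Stretches of the promoters are shown first because Hsf1 binds inverted repeats of the unit GAA, known as heat shock elements. They come from RefSeq on GRCm38.p6 and are written 5′ to 3′ on the strand of the gene, and capitals mark the letters GAANNTTC or TTCNNGAA. Each of these motifs is its own reverse complement, so a match counts for both strands, and the motifs may overlap. The Hspa1a stretch (minus strand, chr17:34972207-34972306) was identical over its 100 bases to the stretch before the neighbouring gene Hspa1b (minus strand, chr17:34959289-34959388), and over 250 bases before the start the copies differed at 3. The Hspe1 stretch (plus strand, chr1:55088018-55088117) lies inside the annotated span of Hspd1, which is read the other way, and the Hspb1 stretch is on the plus strand at chr5:135887766-135887865.
Hspa1a: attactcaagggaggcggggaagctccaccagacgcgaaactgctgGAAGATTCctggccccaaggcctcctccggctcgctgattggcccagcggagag
Hspe1: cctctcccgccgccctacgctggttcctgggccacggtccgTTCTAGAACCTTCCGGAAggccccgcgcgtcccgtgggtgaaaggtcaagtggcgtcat
Hspb1: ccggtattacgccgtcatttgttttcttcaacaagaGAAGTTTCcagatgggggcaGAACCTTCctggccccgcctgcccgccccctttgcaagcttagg
The Hspa1a stretch holds 1 match, the Hspe1 stretch 3 overlapping matches and the Hspb1 stretch 2.

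RefSeq promoters, from 250 bases before to 50 after a start, were available for 65 of the 82 genes at 83 starts. GAANNTTC or TTCNNGAA was present at 20 of these 83 starts (24.1%), against 4946 of all 32851 promoters (15.1%). GAANNTTC by itself was present at 17 of the 83 (20.5%) and in 7.86% of all promoters. At 6 of the 83 (7.23%), those of Dnajb6, Hspd1, Hspe1 and Hsph1, there were 3 alternating units in a row, that is GAA, TTC and GAA or TTC, GAA and TTC with 2 bases between neighbours, against 0.603% of all promoters. These counts describe letters in a window, and starts of 1 gene and divergent genes such as Hspd1 and Hspe1 share sequence.

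Stretches of coding sequence show how widely the base composition of these genes varies, to which the differences between libraries are set further on. They are 60 bases from the middle of each coding sequence in GENCODE M21 transcripts on GRCm38, 5′ to 3′ on the strand of the gene, with G and C in capitals. Positions are counted from 1 at the first base of the start codon, and each lies in coding exon sequence. Hsf1 is shown at positions 757 to 816, Hspb1 at 316 to 375, Hspa1b at 964 to 1023, Hsp90b1 at 1204 to 1263 and Dnajb4 at 508 to 567.
Hsf1: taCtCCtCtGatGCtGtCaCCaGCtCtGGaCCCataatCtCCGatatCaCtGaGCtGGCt
Hspb1: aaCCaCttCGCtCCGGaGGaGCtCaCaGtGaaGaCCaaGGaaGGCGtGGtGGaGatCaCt
Hspa1b: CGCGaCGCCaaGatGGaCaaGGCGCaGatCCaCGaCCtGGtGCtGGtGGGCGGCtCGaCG
Hsp90b1: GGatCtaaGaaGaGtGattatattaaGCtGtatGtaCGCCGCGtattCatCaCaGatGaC
Dnajb4: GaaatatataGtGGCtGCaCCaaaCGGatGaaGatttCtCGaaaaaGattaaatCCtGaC
G and C make up 51.7% of the stretch from Hsf1, 56.7% from Hspb1, 68.3% from Hspa1b, 40.0% from Hsp90b1 and 36.7% from Dnajb4.

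The lung label was checked against 6 genes of cell types found in lung. All 6 (Sftpc, Sftpb, Scgb1a1, Ager, Cldn5 and Pecam1) reached 1 TPM in replicate 2 and 5 did in replicate 1, where Cldn5 was at 0.43 TPM. Their sums were 219694.9 TPM in replicate 2 against 17922.12 TPM in replicate 1. Scgb1a1 made up most of both sums, at 174256.75 TPM in replicate 2 against 17497.89 TPM in replicate 1. By counts all 6 markers were over 2-fold higher in the later library, against 39.3% of all tested genes. Red cell genes summed to 24454.33 TPM in replicate 2 against 1900.61 TPM in replicate 1. The share of the TPM total that such genes take bears on the TPM of every other gene, and its part in the sums of the chaperone genes was not tested.

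Most chaperone genes were expressed in both libraries. A TPM of at least 1, that is 1 transcript in every 1000000 after division by length, was reached in both libraries by 66 of the 82 genes (80.5%), against 10713 of 21474 protein-coding genes (49.9%). In replicate 2 alone 6 genes reached it (Hspa1l, Hspb2, Hspb7, Dnajc4, Hsf1 and Hsf4), in replicate 1 alone Dnajc5b and Dnajc6 did, and 8 genes did so in neither. Those 8 were Dnajb7, Dnajb8, Dnajc5g, Dnajc22, Hsf3, Hsf5, Hspb3 and Hspb9, at no more than 0.77 TPM in any library. These are shares of 7.32% in replicate 2 alone, 2.44% in replicate 1 alone and 9.76% in neither. Among protein-coding genes the shares were 10.7%, 2.33% and 37.1%. The 82 genes summed to 4871.96 TPM in replicate 2 against 8947.75 TPM in replicate 1, a share of the TPM total of 0.487% in replicate 2 and 0.895% in replicate 1. The mean was 6909.86 ± 2882.02 TPM (SD, n = 2 libraries), so the later library held the lower sum. The 6 genes of highest level held 54.6% of that sum in replicate 2 and 54.1% in replicate 1.

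**Figure D1:**
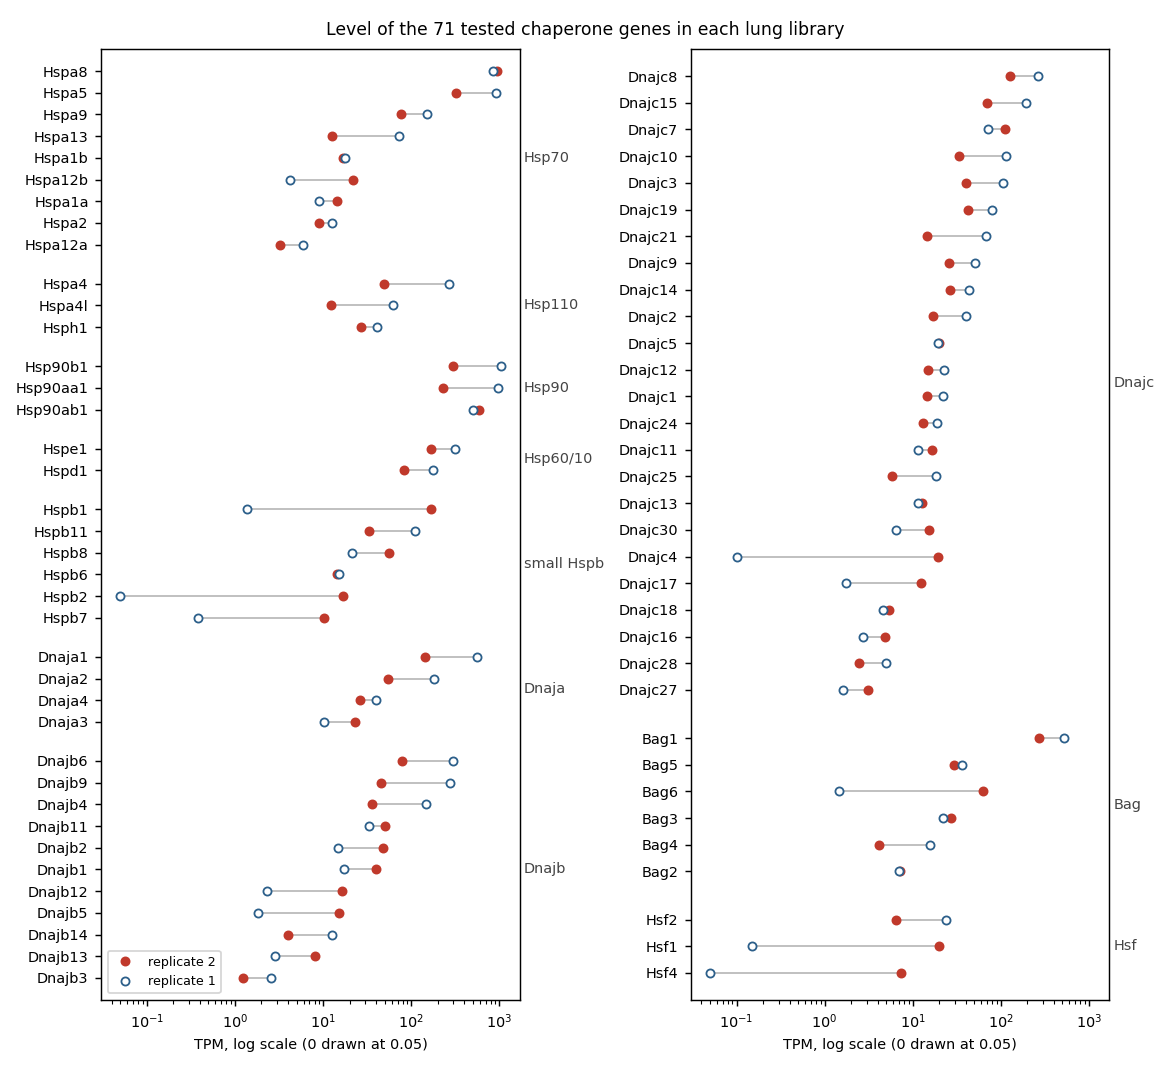
Level in TPM, on a log axis, of the 71 chaperone genes with a mean of at least 1 TPM, grouped by class and ordered by mean within a class, with a filled point for replicate 2, an open point for replicate 1 and values of 0 drawn at 0.05. The points of Hspa8 lie side by side near the top of the scale, while those of Hspb1, Hspb2, Dnajc4, Bag6, Hsf1 and Hsf4 lie far apart, with replicate 2 higher.

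Between the libraries, 20 of the 71 genes with a mean of at least 1 TPM were over 2-fold higher in replicate 2 than in replicate 1, while 21 were lower by as much and 30 lay within 2-fold. Over all 14139 genes tested in the same way 39.3% were higher and 28.2% lower, and over protein-coding genes 39.6% were higher and 27.9% lower. The chaperone genes thus held 28.2% higher and 29.6% lower. Their median log2 ratio of counts, replicate 2 over replicate 1 after TMM scaling, was -0.34, against 0.19 over all tested genes. The counting interval of the ratio excluded 1 for 64 of the 71, so nearly all of these differences were larger than counting error, and none has a replicate check. That count was not made over all tested genes, so it cannot be set against a background. Across the 71 genes Spearman's rho between the TPM of the libraries was 0.68, against 0.50 over all tested genes.

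The ratio between the libraries also followed base composition, in the chaperone genes as in other genes. Across the 71 genes Spearman's rho between the log2 ratio and the GC content of their transcripts was 0.80, and over 14067 tested genes it was 0.82, where all points share the same pair of libraries. Of the 14 chaperone genes under 45% GC none was over 2-fold higher in replicate 2 and 12 were lower, with a median log2 ratio of -1.55. Of the 20 genes from 45 to 50% none was higher and 9 were lower, with a median of -0.83. Of the 20 genes from 50 to 55% 9 were higher and none was lower, with a median of 0.90, and of the 17 genes at 55% or over 11 were higher and none was lower, with a median of 2.96. Over all genes the medians in these classes were -1.66, -0.61, 1.24 and 3.96. Of the 2743 tested genes under 45% GC 14 were over 2-fold higher and 2262 lower, and of the 3941 from 45 to 50% 359 and 1352. Of the 3986 genes from 50 to 55% 2191 were higher and 289 lower, and of the 3397 at 55% or over 2977 and 51.

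After the lowess trend on GC content over all tested genes was subtracted, 7 of the 71 chaperone genes were over 2-fold higher and 18 lower, against 22.6% and 20.5% of all genes, and their median was -0.10. A second trend, chosen after the data were seen, used base composition in the AT-rich stretches of a transcript, taken as the 10th percentile over windows of 180 bases. After its subtraction 8 were higher and 8 lower, against 19.0% and 17.6% of all genes, with a median of 0.037. What produced the trend was not tested.

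**Figure D2:**
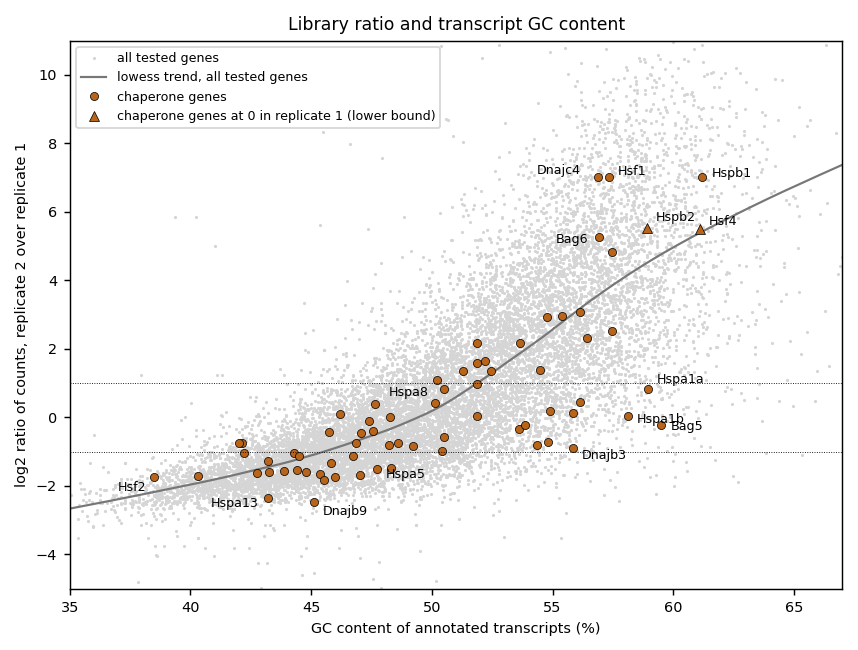
Log2 ratio of counts, replicate 2 over replicate 1, against the mean GC content in percent of a gene's annotated transcripts, for all tested genes in grey with their lowess trend and for the 71 chaperone genes in orange. Triangles are the lower bounds for Hspb2 and Hsf4, which had no counts in replicate 1, and dotted lines mark 2-fold. The chaperone genes climb along the grey trend, with 12 of 14 below the lower line under 45% GC and 11 of 17 above the upper line at 55% or over, while Hspa1a, Hspa1b, Bag5 and Dnajb3 lie below the trend. Over all tested genes 2262 of 2743 were over 2-fold lower under 45% GC. At 55% or over 2977 of 3397 were over 2-fold higher.

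The Hsp70 genes held the largest sum in replicate 2 and the second largest in replicate 1. All 10 summed to 1418.82 TPM in replicate 2 against 2042.2 TPM in replicate 1. Of the 9 tested, 6 lay within 2-fold, 1 was over 2-fold higher and 2 lower, against 39.3% higher and 28.2% lower over all genes. Hspa8, the constitutive Hsp70 of the cytosol (ENSMUSG00000015656.12, chromosome 9, 40800984 to 40810087, plus strand), was at 939.88 TPM in replicate 2 against 842.45 TPM in replicate 1. It had the highest level of all 82 genes in replicate 2 and the fourth in replicate 1. From 30460 counts in replicate 2 and 17796 counts in replicate 1 its log2 ratio was 0.43, within 2-fold.

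Hspa5, also known as BiP, the Hsp70 of the endoplasmic reticulum, was at 323.42 TPM in replicate 2 against 926.22 TPM in replicate 1. By counts it was 2.83-fold lower in replicate 2, a log2 ratio of -1.50. Hspa9, the mitochondrial Hsp70, was at 76.37 TPM in replicate 2 against 151.15 TPM in replicate 1, with a log2 ratio of -0.75. Hspa13, a microsomal relative without the usual client-binding part, was at 12.67 TPM in replicate 2 against 72.65 TPM in replicate 1, 5.16-fold lower in the later library.

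Of the stress-inducible pair, Hspa1b ranked 42 of the 82 genes by TPM in replicate 2 and 41 in replicate 1, and Hspa1a ranked 51 in both. Like the other genes named in this paragraph and the next 2, the pair was picked out after its values were seen. Hspa1a was at 14.39 TPM in replicate 2 against 8.89 TPM in replicate 1, from 632 counts in replicate 2 and 277 counts in replicate 1, and Hspa1b was at 16.75 TPM in replicate 2 against 17.9 TPM in replicate 1, from 692 counts in replicate 2 and 525 counts in replicate 1. Their log2 ratios were 0.84 and 0.048, so both lay within 2-fold, and for Hspa1b the counting interval included 1. The coding sequences were identical at 1918 of 1929 aligned positions (99.4%), differing at 11, so reads can be split between the copies and the level of each is uncertain. The authors' posterior SD of the count was 12.54 for Hspa1a and 12.57 for Hspa1b in replicate 2, and 0 for both in replicate 1. Hspa8 shared 71.8% of aligned coding positions with Hspa1a and Hspa1l 82.9%.

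Hspa1a and Hspa1b lay far below the trend on transcript GC content, by -3.69 and -4.11 on the log2 scale. The coding GC content was 65.0% in Hspa1a and 65.3% in Hspa1b, but the 3′ untranslated part held 43.0% and 34.4%, and the most AT-rich window of 180 bases lay there in both, at 32.2% and 24.4% GC. After the trend on AT-rich windows, chosen after the data were seen, their values were 0.64 and 1.43. Neither gene then lay below that trend, and Hspa1b lay over 2-fold above it. Among 67 chaperone genes with a transcript of the deposited length, tested or not, the most AT-rich window lay in the 3′ untranslated part in 39. The same was not counted over all genes, so 39 has no background. The transcript used was not always the one of highest TPM. The bearing of the 3′ untranslated part on the ratios was not tested. Bag5 (-4.98), Dnajb3 (-3.92), Hspa12a (-3.19) and Bag1 (-3.01) were also more than 3 below the first trend on the log2 scale, and after the second they were at -2.15 for Bag5, -0.18 for Dnajb3, -3.73 for Hspa12a and -0.46 for Bag1. The GC content is a mean over annotated transcripts, 59.5% for Bag5 and 54.8% for Hspa12a. Their transcripts of highest TPM had 50.2% and 49.3%, so these distances depend on which transcripts are counted. For Bag1 (54.3 and 54.2%) and Dnajb3 (55.9% in both) the values were alike. The window value of Bag5 was likewise a mean of 47.7%, against 36.1% in that transcript.

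Hspa12b, an atypical relative known from endothelial cells, was the Hsp70 gene over 2-fold higher in replicate 2, at 22.06 TPM against 4.26 TPM in replicate 1 and a log2 ratio of 2.51. After the trend on GC content the sign turned, to -1.33. Hspa2 and Hspa1l, which are most active in the testis, were at low levels. Hspa2 was at 8.95 TPM in replicate 2 against 12.54 TPM in replicate 1, and Hspa1l was at 1.09 TPM in replicate 2 against 0.2 TPM in replicate 1.

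The nucleotide exchange factors of the Hsp110 class were lower in the later library. Their 3 genes summed to 87.56 TPM in replicate 2 against 369.07 TPM in replicate 1. Of these 3, 2 were over 2-fold lower, against 28.2% of all tested genes. Hspa4 was at 48.64 TPM in replicate 2 against 266.55 TPM in replicate 1, with 2915 counts in replicate 2 and 4726 counts in replicate 1 and a log2 ratio of -1.05. Hspa4l was at 12.24 TPM in replicate 2 against 61.76 TPM in replicate 1, with a log2 ratio of -1.66. Hsph1, which is induced by heat, was at 26.68 TPM in replicate 2 against 40.76 TPM in replicate 1, with a log2 ratio of -0.46, within 2-fold. The GC content of these genes ran from 44.3 to 47.1%, and after the trend on it the values of Hspa4 and Hsph1 were 0.21 and 0.17 and that of Hspa4l was -0.61.

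The BAG genes, several of whose proteins also release nucleotide from Hsp70, summed to 403.26 TPM in replicate 2 against 609.8 TPM in replicate 1. Bag1 made up most of both sums, at 273.61 TPM in replicate 2 against 527.24 TPM in replicate 1 and with a log2 ratio of -0.80. Bag6, which guides membrane proteins with a tail anchor, was at 62.02 TPM in replicate 2 against 1.46 TPM in replicate 1, from 2114 counts in replicate 2 and 43 counts in replicate 1. It was 38.6-fold higher in the later library (interval 28.5 to 53.5).

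Bag4, a silencer of death receptors, was the BAG gene over 2-fold lower, at 4.19 TPM in replicate 2 against 15.52 TPM in replicate 1 and with a log2 ratio of -1.74. The other members lay within 2-fold. Bag3, which couples Hsp70 and Hspb8 to autophagy, was at 27.24 TPM in replicate 2 against 21.96 TPM in replicate 1. Bag5 was at 29.09 TPM in replicate 2 against 36.6 TPM in replicate 1, and Bag2 was at 7.11 TPM in replicate 2 against 7.02 TPM in replicate 1.

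The 4 Dnaja genes, whose proteins resemble bacterial DnaJ most closely, summed to 246.77 TPM in replicate 2 against 783.31 TPM in replicate 1. Dnaja1 was at 141.86 TPM in replicate 2 against 553.33 TPM in replicate 1, and Dnaja2 was at 55.2 TPM in replicate 2 against 180.42 TPM in replicate 1, both about 3-fold lower in the later library, with log2 ratios of -1.61 and -1.56. Dnaja4 was at 26.44 TPM in replicate 2 against 39.41 TPM in replicate 1, within 2-fold. Dnaja3, the J protein of the mitochondrial matrix, went the other way, at 23.27 TPM in replicate 2 against 10.15 TPM in replicate 1, with a log2 ratio of 1.35.

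The 13 Dnajb genes summed to 342.3 TPM in replicate 2 against 810.34 TPM in replicate 1. Of 11 tested, 2 lay within 2-fold, 5 were over 2-fold higher and 4 lower, against 39.3% higher and 28.2% lower over all genes. Dnajb6, which keeps glutamine-rich proteins from aggregating, was at 78.73 TPM in replicate 2 against 299.92 TPM in replicate 1, and Dnajb4 was at 35.7 TPM in replicate 2 against 145.56 TPM in replicate 1, with log2 ratios of -1.47 and -1.84. Dnajb9, a J protein of the endoplasmic reticulum and partner of BiP, had the lowest ratio of all 71 genes. It was at 45.07 TPM in replicate 2 against 277.28 TPM in replicate 1, 5.57-fold lower in the later library.

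Among the Dnajb genes higher in replicate 2, Dnajb5 was at 15.02 TPM in replicate 2 against 1.83 TPM in replicate 1, with a log2 ratio of 3.07. Dnajb12, anchored in the membrane of the endoplasmic reticulum, was at 16.41 TPM in replicate 2 against 2.32 TPM in replicate 1, with a log2 ratio of 2.96. Its close relative Dnajb14 was at 3.98 TPM in replicate 2 against 12.73 TPM in replicate 1, with a log2 ratio of -1.54, so these relatives differed in direction. Their GC content was 55.4% and 44.4%, and after the trend on it they were at 0.17 and -0.31.

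Dnajb13, a part of the radial spoke of cilia and sperm tails, was at 8.07 TPM in replicate 2 against 2.87 TPM in replicate 1, with a log2 ratio of 2.18. The 5 markers of ciliated cells summed to 794.66 TPM in replicate 2 against 117.94 TPM in replicate 1. All 5 reached 1 TPM in replicate 2 and 4 did in replicate 1, where Foxj1 was at 0.11 TPM, and none was at 0. Tppp3 made up most of the sum in replicate 2, at 547.38 TPM in replicate 2 against 1.15 TPM in replicate 1, and Ccdc39 went the other way, at 4.08 TPM in replicate 2 against 18.51 TPM in replicate 1. Their part in the difference was not tested. Dnajb13 overlaps Ucp2 on the other strand, and whether the authors' counting used strand is not given in the sources used here.

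The 28 Dnajc genes, which have a J domain but otherwise share little, summed to 667.56 TPM in replicate 2 against 1177.3 TPM in replicate 1. Of 24 tested, 13 lay within 2-fold, 5 were over 2-fold higher and 6 lower, against 39.3% higher and 28.2% lower over all genes. Dnajc8, which associates with the spliceosome, was highest, at 126.24 TPM in replicate 2 against 262.68 TPM in replicate 1. Dnajc7 was at 110.46 TPM in replicate 2 against 71.79 TPM in replicate 1. By counts both were nearly level, with log2 ratios of 0.090 and 0.019.

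Dnajc15, of the mitochondrial inner membrane, was at 69.53 TPM in replicate 2 against 191.1 TPM in replicate 1, with a log2 ratio of -1.32. Dnajc10, a disulfide reductase of the endoplasmic reticulum, was at 33.69 TPM in replicate 2 against 114.63 TPM in replicate 1, with a log2 ratio of -1.03. Dnajc21, a ribosome assembly factor, was the lowest of the class by ratio, at 14.48 TPM in replicate 2 against 68.32 TPM in replicate 1 and a log2 ratio of -1.70. At 40.3% its GC content was among the lowest here, and after the trend it was at 0.22.

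Dnajc4 had 246 counts in replicate 2 and 1 count in replicate 1, at 19.35 TPM in replicate 2 against 0.1 TPM in replicate 1. The interval of its ratio ran from 34.3 to 7656-fold higher. Dnajc17, which acts in splicing, was at 12.53 TPM in replicate 2 against 1.73 TPM in replicate 1, with a log2 ratio of 2.93. Of the 4 genes listed here as synaptic, Dnajc5 was at 19.83 TPM in replicate 2 against 19.36 TPM in replicate 1. Dnajc5b, Dnajc6 and Dnajc5g were at no more than 0.49 TPM in replicate 2 and no more than 1.25 TPM in replicate 1.

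The Hsp90 genes summed to 1122.75 TPM in replicate 2 against 2496.27 TPM in replicate 1, and the 3 genes did not move together. Hsp90b1, the Hsp90 of the endoplasmic reticulum (chromosome 10, 86690209 to 86705509, minus strand), was at 300.73 TPM in replicate 2 against 1033.98 TPM in replicate 1. Hsp90aa1, the more stress-inducible of the cytosolic pair, was at 227.79 TPM in replicate 2 against 959.09 TPM in replicate 1. These were 3.10-fold and 3.24-fold lower in the later library, and they held the first and second rank of all 82 genes in replicate 1. At GC contents of 42.7% and 47.0%, Hsp90b1 and Hsp90aa1 were at -0.10 and -1.04 after the GC trend.

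Hsp90ab1, the constitutive partner of Hsp90aa1 (chromosome 17, 45567775 to 45573271, minus strand), was at 594.23 TPM in replicate 2 against 503.2 TPM in replicate 1, and had 21788 counts in replicate 2 and 5669 counts in replicate 1. Its TPM was similar in both libraries whereas its log2 ratio of counts was 1.59. At a GC content of 51.9%, Hsp90ab1 was at 0.60 after the GC trend. The authors' estimate of its mean transcript length was 2507 bases in replicate 2 and 1186 bases in replicate 1, and TPM divides by that length. Hsp90aa1 and Hsp90ab1 were identical at 75.7% of aligned coding positions. Within replicate 2 Hsp90ab1 stood above Hsp90aa1, and within replicate 1 below it.

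Hspe1 and Hspd1, the genes of Hsp10 and Hsp60, are read in opposite directions from starts 111 bases apart on chromosome 1, with the stretch shown above before the start of Hspe1. Hspe1 was at 169.14 TPM in replicate 2 against 311.54 TPM in replicate 1, and Hspd1 at 82.16 TPM in replicate 2 against 174.81 TPM in replicate 1. Both were lower in the later library but lay within 2-fold, with log2 ratios of -0.75 and -0.99. In both libraries Hspe1 stood above Hspd1. The annotated spans of the genes overlap, and reads from the overlap cannot be told apart without strand.

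**Figure D3:**
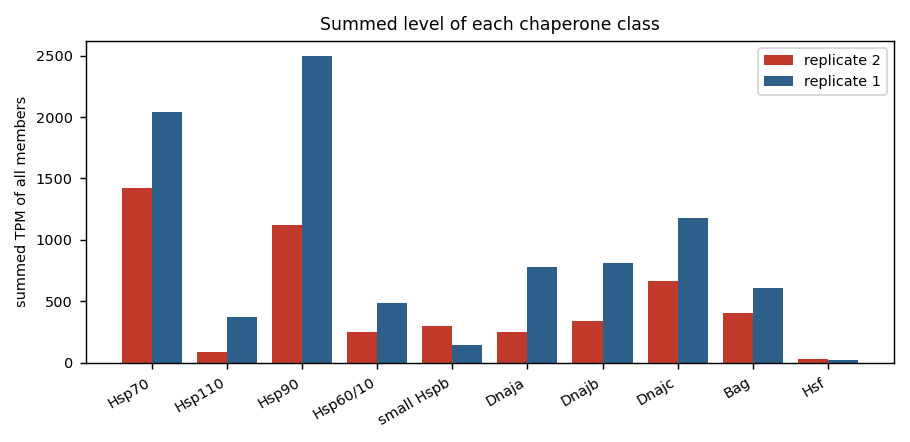
Summed TPM of all genes of each class, with the left bar of each pair for replicate 2 and the right bar for replicate 1. The small Hspb genes (297.81 TPM in replicate 2, 148.28 TPM in replicate 1) and the Hsf genes (33.83 TPM in replicate 2 against 24.83 TPM in replicate 1) were higher in replicate 2, and the other 8 classes were lower.

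Of the small heat shock protein genes, 4 of 6 tested were over 2-fold higher in replicate 2, 1 was lower and 1 lay within 2-fold. Over all tested genes 39.3% were higher and 28.2% lower, and of the 3397 genes at 55% GC or over 2977 were higher, while the median GC content of this class was 56.7%. Hspb1, the widely expressed and heat-inducible member (chromosome 5, 135887919 to 135889563, plus strand), was at 166.58 TPM in replicate 2 against 1.36 TPM in replicate 1. From 1892 counts in replicate 2 and 11 counts in replicate 1 it had a log2 ratio of 7.01, with an interval of 75.3 to 271-fold. At a GC content of 61.2% it was at 1.58 after the GC trend and at 0.048 after the window trend. Hspb8, the partner of Bag3, was at 55.62 TPM in replicate 2 against 21.47 TPM in replicate 1, with a log2 ratio of 1.64.

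Hspb7, a cardiac member, was at 10.25 TPM in replicate 2 against 0.38 TPM in replicate 1, from 418 counts in replicate 2 and 11 counts in replicate 1, with a log2 ratio of 4.84. It was at 0.99 after the GC trend and at 0.21 after the window trend. Hspb2, a muscle member, had 175 counts in replicate 2 (16.89 TPM) and none in replicate 1, which is at least 45.8-fold higher when 3 counts in that library are taken as the floor. The exact interval of its ratio reaches down to 36.8-fold. Hspb2 overlaps Cryab, a small heat shock protein gene read the other way, which was at 257.86 TPM in replicate 2 against 25.6 TPM in replicate 1, so its reads are uncertain.

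Hspb6, also known from muscle, was at 14.57 TPM in replicate 2 against 15.35 TPM in replicate 1, and its interval included 1. Hspb11, which despite its symbol is a part of the intraflagellar transport machinery, was at 33.23 TPM in replicate 2 against 109.72 TPM in replicate 1, with a log2 ratio of -1.60. Hspb3 and Hspb9 had 5 counts and 1 count in replicate 2 and none in replicate 1.

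The 6 small heat shock proteins of muscle (Hspb1, Hspb2, Hspb3, Hspb6, Hspb7 and Hspb8) together came to 264.44 TPM in replicate 2 against 38.56 TPM in replicate 1. Hspb1, which is widely expressed, and Hspb8 made up most of the sum in replicate 2, at 166.58 and 55.62 TPM. Of 5 tested, 4 were over 2-fold higher, against 39.3% of all tested genes. The 8 cardiac markers summed to 1357.56 TPM in replicate 2 against 116.29 TPM in replicate 1, with 7 of 8 at 1 TPM or more in each library and none at 0. Of these markers 7 were over 2-fold higher, while Ryr2 was at 0.93 TPM in replicate 2 against 1.59 TPM in replicate 1. The 5 smooth muscle markers summed to 823.54 TPM in replicate 2 against 89.38 TPM in replicate 1, and the 4 skeletal muscle markers to 29.13 TPM in replicate 2 against 3.53 TPM in replicate 1, where Myh4 was at 0 in both libraries and Ckm and Acta1 at 0 in replicate 1. The part of these cells in the difference was not tested. The tested genes of the list of small heat shock proteins had a median GC content of 57.5%. After the trend on it 2 of the 5 were over 2-fold higher and 1 lower, against 22.6% and 20.5% of all genes.

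The heat shock factors split by member. Hsf1, the main activator of the heat shock response (chromosome 15, 76477422 to 76501913, plus strand), was at 20.03 TPM in replicate 2 against 0.15 TPM in replicate 1, from 580 counts in replicate 2 and 3 counts in replicate 1. Its log2 ratio was 7.02, with an interval of 51.7 to 738-fold higher. Hsf4, known from the lens, had 174 counts (7.28 TPM) in replicate 2 and none in replicate 1, at least 45.5-fold higher at a floor of 3 counts, where the exact interval reaches down to 36.6-fold. Hsf2, which acts in development and can pair with Hsf1, was lower in the later library, at 6.47 TPM in replicate 2 against 23.89 TPM in replicate 1, with a log2 ratio of -1.74.

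Hsf2 had the lowest GC content of the 71 genes at 38.5%, and Hsf1 and Hsf4 had 57.3% and 61.1%. After the trend Hsf2 was at 0.45, so it no longer stood below other genes, and Hsf1 was still at 3.24. Hsf3 was at 0.03 TPM in replicate 2 against 0.77 TPM in replicate 1, and Hsf5 at 0.02 TPM in both.

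Grouped by place in the cell, the 9 genes listed for the endoplasmic reticulum summed to 826.64 TPM in replicate 2 against 2605.15 TPM in replicate 1. None was over 2-fold higher and 7 were lower (Hspa5, Hsp90b1, Hspa13, Dnajb9, Dnajc3, Dnajc10 and Dnajc25), with a median log2 ratio of -1.28, against 39.3% higher and 28.2% lower over all tested genes. The others were Dnajb11, at 50.81 TPM in replicate 2 against 33.36 TPM in replicate 1, and Dnajc1, at 14.57 TPM in replicate 2 against 21.89 TPM in replicate 1. The GC content of the 9 genes ran from 42.2 to 50.5%, and after the trend their median was -0.10, with 2 lower, where 20.5% of all genes were lower. The list left out Dnajb12 (log2 ratio 2.96), and among other endoplasmic reticulum genes the Hsp70 relative Hyou1 was at 30.91 TPM in replicate 2 against 5.34 TPM in replicate 1.

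The 9 mitochondrial genes summed to 513.62 TPM in replicate 2 against 935.15 TPM in replicate 1, and 4 were over 2-fold higher, 1 lower and 4 within 2-fold, against 39.3% higher and 28.2% lower over all tested genes. Those higher were Dnaja3, Dnajc4, Dnajc11 and Dnajc30, and the lower one was Dnajc15. Dnajc19, a part of the motor that imports proteins into mitochondria, was at 42.04 TPM in replicate 2 against 78.51 TPM in replicate 1, within 2-fold. The authors' posterior SD of its count was 12.44 in replicate 2 and 12.31 in replicate 1, on 320 counts in replicate 2 and 422 counts in replicate 1.

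The 14 genes of the heat-inducible list summed to 2537.76 TPM in replicate 2 against 3619.45 TPM in replicate 1. Of the 14, 4 were over 2-fold higher (Hspb1, Hspb8, Hsp90ab1 and Dnajb1), 3 lower (Hsp90aa1, Dnaja1 and Dnajb4) and 7 within 2-fold. The shares over all tested genes were 39.3% higher and 28.2% lower. Dnajb1, the main partner of Hsp70 in the stress response, was at 39.74 TPM in replicate 2 against 17.13 TPM in replicate 1. The list also holds Hspa8 and Hsp90ab1, which are mainly constitutive and made up 1534.11 TPM of the sum in replicate 2 and 1345.65 TPM of it in replicate 1. Without them the other 12 genes summed to 1003.65 TPM in replicate 2 against 2273.8 TPM in replicate 1. The list therefore did not move one way, and the order of its full sum depends on the scale. In CPM (counts scaled to a fixed library total) after TMM scaling it was 4342 CPM in replicate 2 against 5074 CPM in replicate 1, and with total counts it turned, at 4756 CPM in replicate 2 against 4633 CPM in replicate 1. Immediate early genes, which respond to handling of tissue, summed to 187.65 TPM in replicate 2 against 149.3 TPM in replicate 1, with all 5 above 1 TPM in each library and none at 0. The higher sum rests on Junb, at 54.05 TPM in replicate 2 against 1.02 TPM in replicate 1, while Fos was at 29.46 TPM in replicate 2 against 49.62 TPM in replicate 1. Of the 10 genes listed as testis-enriched, 5 reached 1 TPM in replicate 2 and 4 in replicate 1, while the testis markers Prm1, Prm2, Tnp1 and Acrv1 stayed at or below 0.25 TPM in replicate 2 and were at 0 in replicate 1.

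Of 44 other genes of the chaperone network, 43 were tested, and 23 were over 2-fold higher, 10 lower and 10 within 2-fold, with a median log2 ratio of 1.17. Over all tested genes 39.3% were higher and 28.2% lower, with a median of 0.19. After the GC trend 17 of the 43 were over 2-fold higher and 3 lower, with a median of 0.49. The shares of all genes after that trend were 22.6% higher and 20.5% lower. The 44 genes summed to 4530.06 TPM in replicate 2 against 5265.41 TPM in replicate 1. Pdia3, a disulfide isomerase of the endoplasmic reticulum, was at 232.92 TPM in replicate 2 against 1090.27 TPM in replicate 1. Pfdn5, a subunit of prefoldin, was at 732.66 TPM in replicate 2 against 60.35 TPM in replicate 1, so these differed in direction. Ptges3, the Hsp90 cofactor p23, was at 107.07 TPM in replicate 2 against 587.35 TPM in replicate 1, and Calr, a chaperone for glycoproteins, was level by TPM at 324.65 TPM in replicate 2 against 327.26 TPM in replicate 1. Trap1, the mitochondrial Hsp90, was at 36.6 TPM in replicate 2 against 10.53 TPM in replicate 1.

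The main transcript, the one of highest TPM, differed between the libraries for 11 of 60 chaperone genes with at least 50 counts in each (18.3%), against 20.9% of 9748 genes. In Hsp90ab1 a transcript of 2520 bases held 99.3% of the gene's abundance in replicate 2 and 32.2% in replicate 1, while one of 656 bases held 0.03% in replicate 2 and 44.6% in replicate 1. In Hspa8 the transcript of 2394 bases held 58.3% in replicate 2 and 13.2% in replicate 1, and that of 2019 bases held 41.5% in replicate 2 and 86.4% in replicate 1. In Hspa4 the transcript of 4618 bases held 83.4% in replicate 2 and 28.3% in replicate 1, and that of 630 bases held 15.6% in replicate 2 and 71.4% in replicate 1.

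In these 3 genes the transcript that led in replicate 2 was the longer one. In Dnaja1 and Dnajc7 the order was the other way: the leading transcript of Dnaja1 had 3376 bases in replicate 2 and 4119 bases in replicate 1, and that of Dnajc7 had 770 bases in replicate 2 and 2330 bases in replicate 1. In Dnajc8 a transcript of 1401 bases held 96.2% in replicate 2 and 5.86% in replicate 1, and none of the abundance in replicate 2 fell on the 746 base transcript that led in replicate 1 at 41.8%. Dnajc21 and Dnajc1 also differed, and their leading transcripts were longer in replicate 2, at 2060 bases for Dnajc21 and 5497 bases for Dnajc1, against 1441 bases for Dnajc21 and 1876 bases for Dnajc1 in replicate 1. Where the main transcript differed, ratios of counts and of TPM can diverge, and how well reads of this depth assign a transcript was not tested.

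**Figure D4:**
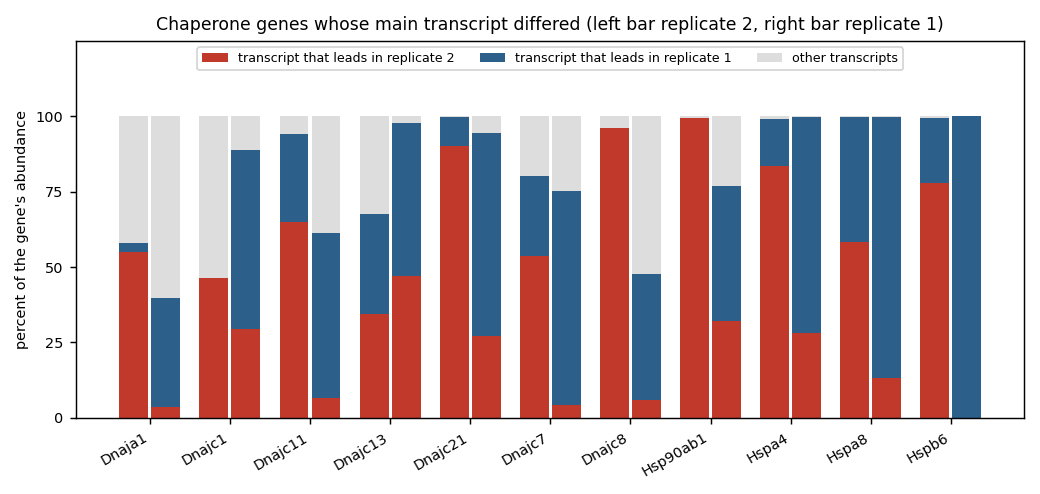
Percent of each gene's abundance held by the transcript that leads in replicate 2 (red), by the one that leads in replicate 1 (blue) and by all others (grey), with replicate 2 as the left bar and replicate 1 as the right bar, for the 11 chaperone genes whose main transcript differed. The red part shrinks in the right bar for all genes but Dnajc13, where it is 34.6% in replicate 2 and 47.0% in replicate 1.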

How the data were processed

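Per the file headers, the authors deposited for each library an expected count per gene and transcript, a TPM value, its posterior mean, interval bounds and the posterior SD of the count (signal-like values without a stated level), lengths in bases, and the percent of its gene's abundance (a share) that each transcript holds. The deposited file descriptions name mm10 and annotation M4, and for the aligner and the quantifier: not given in the sources used here. Symbols, positions and sequences came from GENCODE M21 on GRCm38, where 42462 of 43346 gene identifiers matched.

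Expected counts were rounded and scaled with TMM in edgeR 4.0.16 (R 4.3.3), with factors of 1.10 in replicate 2 and 0.913 in replicate 1. The log2 ratio, replicate 2 over replicate 1, used a prior of 0.5 counts, and genes were tested from a mean of 1 TPM upward. With 1 library on a side no p-value exists, and called means over 2-fold. Ratio intervals are exact at 95%. A gene at 0 counts was set against 3 counts in that library, which is 0.175 CPM in replicate 2 and 0.186 CPM in replicate 1. Ratios were tested on simulated data with known folds. The simulation had Poisson noise, 200 changed genes and no GC trend, so it checks the calculation and not the scaling of these libraries. GC content is the mean over a gene's annotated transcripts, and the lowess span was 0.3. DESeq2 1.42.0 size factors were an alternative. The other steps ran in Python 3.11.15 (statsmodels 0.14.6 for lowess, scipy 1.17.1 for intervals).

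The members, lists and alternatives were chosen with earlier results of these data known. Values are given for the 4 genes of highest mean TPM in each class (all in a class of 6 or fewer), the 10 highest and 10 lowest ratios with at least 100 counts, genes at 0 counts in 1 library with at least 20 in the other, up to 8 genes whose main transcript differed, and those below 1 TPM in both libraries. Genes outside this rule are named as list members or were chosen after their values were seen. Whether 1 RNA extraction served both libraries is not stated in the labels. Hspa14, also covered by the rule on symbols, was not matched by identifier and was not analysed here. Of the 82 genes 43 overlap another annotated gene, and 9 had a posterior SD above 1 count in a library.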

Additional observations from a re-analysis of the deposited data

How the results depend on the processing

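The median log2 ratio of -0.34 became -0.079 with total counts, -0.57 with the ratio of TPM, -0.51 at a mean TPM of at least 10, -0.10 after the GC trend and 0.037 after the window trend, which was chosen after seeing the data. Total counts in place of TMM factors raised every log2 ratio, here and over all genes, by 0.26. The 20 genes over 2-fold higher became 11 at a mean TPM of at least 10, 7 after the GC trend and 8 after the window trend, and the 21 lower became 8 after the window trend. Of these 41 genes all kept their direction with total counts, DESeq2 size factors, TPM, no filter, a floor of 3 counts or unrounded counts, 31 did after the GC trend and 29 after the window trend. After the trends 11 and 10 stayed over 2-fold in the same direction.

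The sign turned after the GC trend and the window trend for Dnajb2 (-1.02 and -0.58), Dnajb5 (-0.11 and -0.18), Dnajc2 (0.082 and 0.063), Dnajc3 (0.17 and 0.52), Dnajc10 (0.59 and 0.52), Dnajc21 (0.22 and 0.23), Hsf2 (0.45 and 0.068), Hspa4 (0.21 and 0.31) and Hspa12b (-1.33 and -1.41). It turned after the GC trend alone for Dnajc30 (-0.90) and after the window trend alone for Dnajc11 (-0.017), Dnajc17 (-0.80) and Dnajc25 (0.061). The cause was not tested. The summed TPM of the heat-inducible list, at a log2 ratio of -0.51, became -0.22 with TMM-scaled CPM and turned to 0.038 with total counts. Without Hspa8 and Hsp90ab1 it was -1.18 by TPM, -1.16 by TMM-scaled CPM and -0.90 by total counts, all alternatives chosen after seeing the data.

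The mean sum of 6909.86 TPM was 10722.43 as CPM, since CPM does not divide by length. With 1 library left out, genes at 1 TPM or more numbered 68 to 72 and the sum was 4871.96 to 8947.75 TPM, and no ratio exists. No paired analysis was possible because the ratio has 1 library on a side.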
